A study of Mus musculus with 188 samples.

Results

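The genes described here are mouse zinc finger protein genes, those whose only annotated symbol is Zfp followed by a number and optional letters. They were selected on level: a gene was kept where its brightest probe set had a mean above 5 (log2 intensity) over all arrays. Of 160 Zfp genes with a probe set on the array, 52 met that minimum and are called members below, and 108 did not. The RefSeq gene table held 403 Zfp genes in all, so most of the family was either not on the array or dim. The members nearest above the minimum were Zfp451 at 5.09, Zfp821 at 5.01 and Zfp423 at 5.01, and the genes nearest below it were Zfp764 at 4.99, Zfp185 at 4.96 and Zfp280c at 4.96. The minimum acts on a mean: 29 members had at least 1 strain mean below 5, and 37 of the 108 dimmer genes had at least 1 strain mean above it.

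RNA of the aorta from male wild-type mice aged 16 weeks, fed chow, was measured on 188 Affymetrix HT_MG-430A arrays, which read the 3' part of transcripts. The 94 strains were 28 AXB/BXA, 28 BXD and 10 BXH recombinant inbred strains and 28 other inbred strains, each strain with 1 to 4 arrays. Recombinant inbred strains are inbred from a cross of a pair of strains, so each carries a fixed mosaic of the parents' genomes: A/J and C57BL/6J for AXB/BXA, DBA/2J and C57BL/6J for BXD, and C3H/HeJ and C57BL/6J for BXH. The names of BXD29-Tlr4<lps-2J>/J and BXD24/TyJ-Cep290<rd16>/J mark a Tlr4 allele and a Cep290 allele that the labels do not describe further. The series is labelled as an association study of expression in the aorta of inbred strains. The 2 arrays of BXD32/TyJ carry a suffix in their labels that is not explained and were left out, which left 93 strains. Whether each array stands for its own animal is not stated in the labels, and p-values measure only the spread between arrays, which may be technical.

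Zinc finger proteins of this kind fold short loops around a zinc ion and use an array of them to read DNA or RNA. The largest class in mammals joins the fingers to a KRAB domain, which recruits Trim28 and the histone methyltransferase Setdb1 and so silences the sequences bound, many of them transposons. KRAB zinc finger genes lie in chromosomal clusters that arose by repeated local duplication. Other Zfp genes have quite different roles, in ribosome quality control, development of fat and neurons, or chromosome segregation, and share little with the KRAB class beyond the fingers.

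All 6 measured smooth muscle markers had a mean above 5, as had all 5 endothelial markers, so the defining markers of the labelled tissue were there. The arrays also held RNA of other tissues: skeletal muscle and brown fat markers were high in general, and a thymocyte score (the mean over the markers of the log2 level minus the marker's median over all arrays) exceeded 1 in 42 arrays and a squamous epithelium score in 54. In bulk tissue, fewer cells of a type and less RNA per cell cannot be told apart. The 2 arrays of RIIIS/J had thymocyte scores of 5.40 and 5.65, against a median of -0.01 and a range from -0.35 to 5.24 in the other arrays. In RIIIS/J, 7 of 8 thymocyte markers were above 5 in each array, with a mean of 9.28, whereas 2 of 8 were above 5 in the mean of the other arrays, with a mean of 4.43. RIIIS/J had the highest strain mean for 17 members and the lowest for 8, so the strain tests of the members described for such an extreme, and the neighbour correlations, are given with and without it.

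Promoter sequences are shown for both pairs of neighbouring members whose windows were alike, and for Zfp277, the member with the strongest strain effect. Each window runs from 250 bases before to 50 bases after an annotated start, from RefSeq on GRCm38.p6, the C57BL/6J reference, written 5′ to 3′ on the gene's strand. Capitals mark GGGCGG and CCAAT, in either orientation (as CCGCCC and ATTGG).
Zfp955a, chr17:33255096-33255395, minus strand: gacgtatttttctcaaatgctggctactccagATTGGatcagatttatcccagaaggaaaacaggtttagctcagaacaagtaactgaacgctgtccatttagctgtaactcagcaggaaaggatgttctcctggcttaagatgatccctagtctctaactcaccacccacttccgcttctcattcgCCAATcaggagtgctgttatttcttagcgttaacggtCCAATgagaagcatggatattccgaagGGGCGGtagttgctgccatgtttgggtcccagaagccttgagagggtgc
Zfp955b, chr17:33289294-33289593, plus strand: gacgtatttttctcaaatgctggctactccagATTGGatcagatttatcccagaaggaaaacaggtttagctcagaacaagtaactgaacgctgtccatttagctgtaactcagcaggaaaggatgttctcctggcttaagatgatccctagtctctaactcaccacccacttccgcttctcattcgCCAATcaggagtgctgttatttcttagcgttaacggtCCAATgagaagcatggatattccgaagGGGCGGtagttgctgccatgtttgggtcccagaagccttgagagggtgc
Zfp943, chr17:21962309-21962608, plus strand: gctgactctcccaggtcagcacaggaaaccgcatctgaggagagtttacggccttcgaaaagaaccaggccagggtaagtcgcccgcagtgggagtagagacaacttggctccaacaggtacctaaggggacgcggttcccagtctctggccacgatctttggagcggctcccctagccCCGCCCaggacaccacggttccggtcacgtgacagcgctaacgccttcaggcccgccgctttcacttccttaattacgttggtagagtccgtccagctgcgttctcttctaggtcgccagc
Zfp758, chr17:22361213-22361512, plus strand: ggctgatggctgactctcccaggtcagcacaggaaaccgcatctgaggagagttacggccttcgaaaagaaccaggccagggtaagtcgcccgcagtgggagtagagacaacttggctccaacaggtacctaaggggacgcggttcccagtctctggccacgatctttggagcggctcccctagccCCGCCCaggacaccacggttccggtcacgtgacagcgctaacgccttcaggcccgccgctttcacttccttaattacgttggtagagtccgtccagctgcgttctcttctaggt
Zfp277, chr12:40445741-40446040, minus strand: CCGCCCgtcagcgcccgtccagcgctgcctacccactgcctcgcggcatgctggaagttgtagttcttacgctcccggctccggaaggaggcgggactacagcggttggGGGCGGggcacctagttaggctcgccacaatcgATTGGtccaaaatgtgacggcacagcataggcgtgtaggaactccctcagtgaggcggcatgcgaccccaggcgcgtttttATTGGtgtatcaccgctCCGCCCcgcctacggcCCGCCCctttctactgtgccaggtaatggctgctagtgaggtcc
The windows of Zfp955a and Zfp955b, whose gene starts lie 50 kb apart by the lower coordinate, were the same in every base (100% of the window). Those of Zfp943 and Zfp758 matched in 97.3% of bases, the Zfp758 window starting a few bases earlier in the same sequence. Among 774 pairs of members on different chromosomes, the shared part of the windows was a median of 3% and at most 52.7% of the bases in the best overlap of both sequences. Windows were found for 41 of the 52 members. GGGCGG, the core of the GC box, occurred on either strand in 75.6% of the members' genes and in 35.7% of all 32851 windows of the table. CCAAT occurred in 48.8% and 37.4%, and TATAAA in 7.32% and 13.6%. The members' shares are over genes kept on level and the others over windows of all genes, so they are not matched. The median GC content was 59.7% for the members and 52.7% for all windows. A match is a string of letters and no evidence of binding.

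Most members differed between strains. Of the 52 members, 41 (78.8%) passed the test of a strain effect in 177 arrays of the 84 strains with more than 1 array (limma's moderated F test, Benjamini-Hochberg adjusted p below 0.05 over 22327 probe sets). Over all probe sets 46.5% passed, and over the 6234 named genes above the same level minimum 70.7% did. The share of variance that lay between strains, the intraclass correlation, had a median of 0.24 over the members and 0.26 over those 6234 genes. Without RIIIS/J, 29 of 52 members passed in the remaining 83 strains. So did 37.3% of all probe sets and 58.4% of the named genes above the level minimum. The array numbers in the labels form a lower block (up to 1038) and a higher one (from 1067). Within the arrays of the lower and the higher block, 24 and 11 members passed in 43 strains each, against 29.8% and 13.9% of all probe sets. With the 82 arrays left out whose thymocyte or squamous score exceeded 1, 17 members passed in 34 strains, against 24.4% of all probe sets.

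The steadiest strain effect was that of Zfp277, a partner of the Polycomb repressor complex at the Cdkn2a locus. Its intraclass correlation was 0.54 (95% interval 0.38 to 0.67) and its adjusted p 9.1e-08. Over the strains with more than 1 array, to which the lowest and highest strain means given here refer, its means ran from 5.21 in BXD38/TyJ over a median of 6.34 to 7.23 in RIIIS/J. Without RIIIS/J the highest was 6.96 in MA/MyJ and the adjusted p 3.4e-07. Next came Zfp503, a transcriptional repressor known from the developing striatum, with an intraclass correlation of 0.51 (0.34 to 0.65) and an adjusted p of 7.2e-07. Its strain means lay between 4.67 in RIIIS/J and 7.30 in KK/HlJ. Without RIIIS/J the lowest was 5.92 in BXH9/TyJ, the intraclass correlation 0.38 and the adjusted p 5.3e-04. Zfp518b followed with 0.49 (0.32 to 0.64) and Zfp622, which works in the maturation of the large ribosomal subunit in human cells, with 0.49 (0.32 to 0.63). Zfp386 reached 0.48 (0.31 to 0.62). Zfp423, a factor of preadipocyte commitment, reached 0.45 (0.27 to 0.60), with strain means from 3.78 in RIIIS/J to 6.51 in BTBR T<+> tf/J. Its adjusted p was 8.4e-05 without RIIIS/J.

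The called members with the largest spread of strain means were Zfp280d, Zfp131, Zfp292, Zfp871, Zfp790, Zfp445, Zfp617, Zfp651, Zfp423, Zfp277, Zfp451 and Zfp330. The SD of their strain means lay between 0.48 for Zfp330 and 0.74 for Zfp280d. Zfp280d averaged 8.36 ± 0.19 in RIIIS/J (SD, n = 2), against 3.71 ± 0.13 (SD, n = 2) in BTBR T<+> tf/J, a 25.1-fold distance between the extremes of the 84 strains with more than 1 array. Zfp292 averaged 7.97 ± 0.14 in RIIIS/J and 4.49 ± 1.05 in AXB6/PgnJ (SD, n = 2 each). For both of these the call rested on RIIIS/J: without it the adjusted p was 0.082 for Zfp280d and 0.10 for Zfp292. Zfp330, a nucleolar protein, likewise had an adjusted p of 0.035 with all strains and 0.062 without RIIIS/J. The opposite pattern, with RIIIS/J lowest, was seen for Zfp651 at 4.19 ± 0.14 in RIIIS/J and a highest mean of 7.37 ± 0.23 in KK/HlJ (SD, n = 2 each). Zfp651 kept an adjusted p of 0.023 without RIIIS/J. The smooth muscle score was -1.07 and -1.69 in RIIIS/J and 0.11 and 0.80 in KK/HlJ, where 1 array also had a thymocyte score of 3.46. Over strain means Zfp651 correlated with the smooth muscle score at r = 0.59, the highest of the members, and the part of smooth muscle RNA in its range was not tested.

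Zfp445, which maintains genomic imprints together with Zfp57, was lowest in BALB/cJ at 4.38 ± 1.25 (SD, n = 2) and highest in C58/J at 6.89 ± 0.05 (SD, n = 2), so the low mean came from arrays that were far apart. Zfp131, a BTB domain protein, ranged from 3.99 ± 1.00 in KK/HlJ to 6.70 ± 0.54 in BXH9/TyJ (SD, n = 2 each), and the only array of BXD18/TyJ stood above these at 7.36. Zfp451, a SUMO ligase, ranged from 3.67 in KK/HlJ to 6.30 in RIIIS/J, with an adjusted p of 0.016 without RIIIS/J. Zfp790 ranged from 3.95 in BTBR T<+> tf/J to 6.30 in BXD42/TyJ, and Zfp617 from 4.39 in KK/HlJ to 7.04 in AXB1/PgnJ. BTBR T<+> tf/J had the lowest mean of 14 members and the highest of 7. KK/HlJ had the lowest of 4 and the highest of 4, and BXA8/PgnJ the lowest of 4. The called members with the smallest intraclass correlations were Zfp672 at 0.20, Zfp758 at 0.20 and Zfp706 at 0.21, and all 3 missed the threshold without RIIIS/J (adjusted p of 0.061, 0.10 and 0.062).

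**Figure D1:**
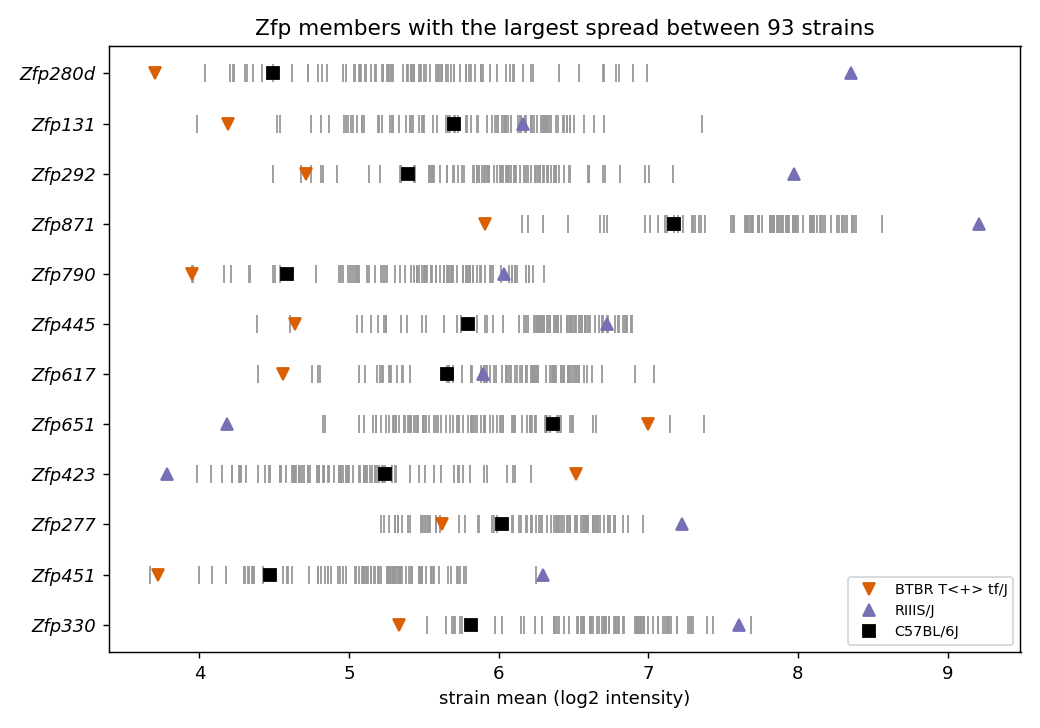
Strain means (log2 intensity) of the 12 called members with the largest spread, 1 mark per strain, with RIIIS/J, BTBR T<+> tf/J and C57BL/6J drawn apart. Zfp280d runs from 3.71 in BTBR T<+> tf/J to 8.36 in RIIIS/J, and these strains sit at the edges for several genes.

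Members of known role that were not called included Zfp148, a GC-box binding factor also named ZBP-89, with an adjusted p of 0.12 and strain means from 6.995 in BTBR T<+> tf/J to 9.69 in RIIIS/J. The second probe set of Zfp148, with a mean of 6.94, did pass (intraclass correlation 0.22, adjusted p = 0.026 by limma). Zfp281, a factor of pluripotent cells, had an adjusted p of 0.13 and means from 4.47 in BTBR T<+> tf/J to 7.51 in RIIIS/J. Zfp207, a kinetochore protein that works with Bub3, passed with an adjusted p of 0.0014 and ranged from 6.63 in BTBR T<+> tf/J to 8.85 in RIIIS/J (adjusted p of 0.0061 without RIIIS/J). The second probe sets of Zfp281 (mean 3.9) and Zfp207 (mean 7.345) did not pass (adjusted p of 0.41 and 0.052 by limma). Zfp703, a relative of Zfp503 known as an amplified gene in human breast cancer, passed with 0.0016 and ranged from 7.21 in RIIIS/J to 9.13 in BXH2/TyJ (adjusted p of 0.0062 without RIIIS/J). Without RIIIS/J the adjusted p was 0.22 for Zfp148 and 0.28 for Zfp281. The lowest intraclass correlations of all members were those of Zfp574 at 0.05, Zfp362 at 0.07 and Zfp219 at 0.07.

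The members moved along a shared axis. The first principal component of the members' strain means held 47.9% of their variance. Within strains, between arrays of a strain, the first component held 54.2%, and the members' weights on both components correlated at r = 0.99 over the 52 genes. The same axis ran through the rest of the array. The first component of the 6180 other named genes above the level minimum held 39.6% of their variance. That share is over all arrays, so it is not matched to the members' shares over strain means or within strains. Over 93 strains the members' component correlated with that of the other genes at r = 0.97. Over strain means, 24 members correlated with this array-wide component above 0.5 and 17 below -0.5, and 5 lay between -0.25 and 0.25. The shares of the other genes beyond these limits are not given here, so the counts do not set the members apart. At the positive end stood Zfp638, an RNA-binding factor of adipogenesis (r = 0.925), Zfp148 (0.912) and Zfp445 (0.908). At the negative end stood Zfp574 (-0.905), Zfp524 (-0.871) and Zfp771 (-0.85).

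The array-wide component was low in BTBR T<+> tf/J (-2.47 and -2.43), and in KK/HlJ it was -3.36 in 1 array and -1.04 in the other. In BXH2/TyJ and C57L/J the 2 arrays of the strain lay far apart, at -3.38 and 0.37 in BXH2/TyJ and at -4.01 and 0.62 in C57L/J. Over arrays, the component correlated at 0.42 and 0.38 with the 3'-to-5' ratios of the control probe sets for Actb and Tfrc, and at 0.03 with that for Gapdh. Its correlation with the tissue scores lay between -0.29 (smooth muscle) and 0.12 (brown adipocyte). The part of RNA quality in the component was not tested. These are descriptions over arrays that share strains, so no p is given.

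**Figure D2:**
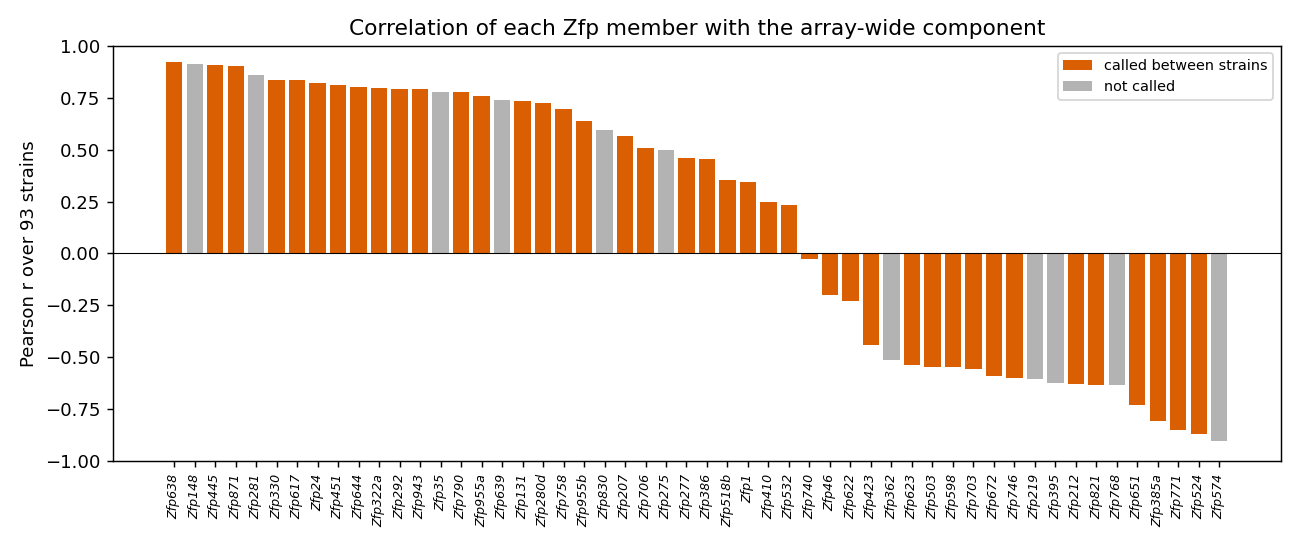
Pearson correlation of each of the 52 members with the array-wide component over 93 strain means, sorted by r, with members that passed the strain test in orange. There are 24 bars above 0.5 and 17 below -0.5.

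With the array-wide component as a covariate, a setting chosen after seeing the data, 36 of 52 members (69.2%) passed the strain test, 33 of them also without it. With the covariate 49.1% of all probe sets and 76.1% of the named genes above the level minimum passed. After removal of the component the intraclass correlation rose to 0.78 for Zfp277, 0.60 for Zfp131 and 0.55 for Zfp423. The SD of their strain means fell, from 0.50 to 0.44, from 0.60 to 0.40 and from 0.52 to 0.46. The intraclass correlations of Zfp503 (0.52), Zfp386 (0.52), Zfp622 (0.52) and Zfp518b (0.50) differed little from those without removal. The calls that were lost were those of Zfp212, Zfp322a, Zfp445, Zfp451, Zfp638, Zfp644, Zfp746 and Zfp955a, and the calls gained were those of Zfp395, Zfp639 and Zfp768. Zfp445 had an adjusted p of 0.0055 without the covariate and 0.23 with it.

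The parental strains were compared with C57BL/6J, whose 3 arrays served in all 3 contrasts. Between A/J and C57BL/6J, 2 members passed, with 0.645% of all probe sets and 0.962% of the named genes above the level minimum. Zfp386 was higher in A/J: its arrays read 7.19 and 7.08 in A/J, against 5.57, 5.13 and 6.22 in C57BL/6J. The groups did not overlap, and the log2 difference was 1.49 (SE 0.35, adjusted p = 0.012 by limma). Its second probe set gave 7.01 and 7.35 in A/J, against 4.95, 4.54 and 5.97 in C57BL/6J, a difference of 2.03 with an adjusted p of 0.065. Zfp503 was lower in A/J, with 6.29 and 6.02 in A/J, against 7.40, 7.41 and 6.81 in C57BL/6J. Its log2 difference was -1.05 (SE 0.28, adjusted p = 0.049 by limma), and its second probe set gave -0.68 with an adjusted p of 0.16. C3H/HeJ also read low for Zfp503, at 6.49 and 6.16, and its difference from C57BL/6J was -0.88, which did not pass (adjusted p = 0.11 by limma). On the second probe set it was C3H/HeJ that passed, with 5.88 and 5.39 in C3H/HeJ, against 6.58, 6.57 and 6.37 in C57BL/6J, a difference of -0.87 (SE 0.21, adjusted p = 0.014 by limma). The 2 probe sets thus call different strains, while both put A/J and C3H/HeJ below C57BL/6J without overlap.

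Both A/J calls were lost when either array of A/J, or C57BL/6J replicate 1 or 2, was left out. All arrays of A/J and C57BL/6J but C57BL/6J replicate 3 lay in the lower block of array numbers, and without that array Zfp386 differed by 1.78 (adjusted p = 0.0029). In the 4 fits that lost the calls the difference of Zfp386 stayed between 1.24 and 1.55 and that of Zfp503 between -1.18 and -0.91. The call of Zfp503 was also lost in 11 other settings, at adjusted p between 0.05 and 0.16. The parental arrays differed on the array-wide component, at 0.28 and 0.26 in A/J, -1.44 and 0.29 in DBA/2J, 0.38 and 0.34 in C3H/HeJ, and -1.07, -2.38 and 0.47 in C57BL/6J. With the component as a covariate, Zfp386 kept its call (1.20, adjusted p = 0.018), Zfp503 missed it (-0.79, adjusted p = 0.075), and Zfp423 passed (1.20, adjusted p = 0.043). The arrays of Zfp423 read 6.06 and 6.04 in A/J, against 5.15, 5.75 and 4.82 in C57BL/6J, again without overlap.

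Between DBA/2J and C57BL/6J no member passed by limma, with 1 at an unadjusted p under 0.05 and 0.524% of all probe sets called. With the component as a covariate 1 member passed, Zfp131, at -0.98 (adjusted p = 0.031). Its arrays read 4.63 and 5.33 in DBA/2J, against 5.75, 5.11 and 6.24 in C57BL/6J, so that the groups overlapped. Between C3H/HeJ and C57BL/6J no member passed by limma, with 8 at an unadjusted p under 0.05 and 1.25% of all probe sets called. The median log2 difference over the members was 0.11 for A/J, -0.05 for DBA/2J and 0.05 for C3H/HeJ, beside -0.01, 0.00 and -0.02 over all probe sets.

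Of the members, 22 had a second probe set, and in 52 of their 66 parental differences it had the sign of the first. The median correlation between both probe sets over strain means was 0.72. It lay between -0.01 and 0.05 for Zfp24, Zfp451, Zfp46 and Zfp518b, whose second probe sets had means of 4.56, 2.85, 3.15 and 3.23. Of these, only the second probe set of Zfp24, a regulator of myelination, passed in a parental contrast, and this gene was singled out after its values were seen. Its brightest probe set (mean 5.51) had an intraclass correlation of 0.23 and gave no parental call. Its second probe set (mean 4.56, under the level minimum) had an intraclass correlation of 0.81 and an adjusted p of 5.1e-22 between strains, and read 5.44 and 5.80 in A/J, and 5.76 and 6.06 in C3H/HeJ, against 3.95, 3.62 and 4.38 in C57BL/6J. The log2 differences were 1.63 for A/J (adjusted p = 9.9e-04 by limma) and 1.92 for C3H/HeJ (adjusted p = 3.4e-05 by limma), and DBA/2J did not pass at -0.11. The other 2 probe sets of Zfp24, with means of 4.17 and 3.79, went the other way in both strains without passing by limma. Their differences were -0.33 and -0.42 in A/J, and -0.63 and -0.16 in C3H/HeJ. The first of them had an intraclass correlation of 0.57 between strains (adjusted p = 9.6e-09 by limma). With the array-wide component as a covariate it passed in C3H/HeJ (adjusted p = 0.0086 by limma). The other one then passed in A/J (adjusted p = 0.044 by limma). The probe sets of this gene disagree, so its total transcript level cannot be compared from them.

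**Figure D3:**
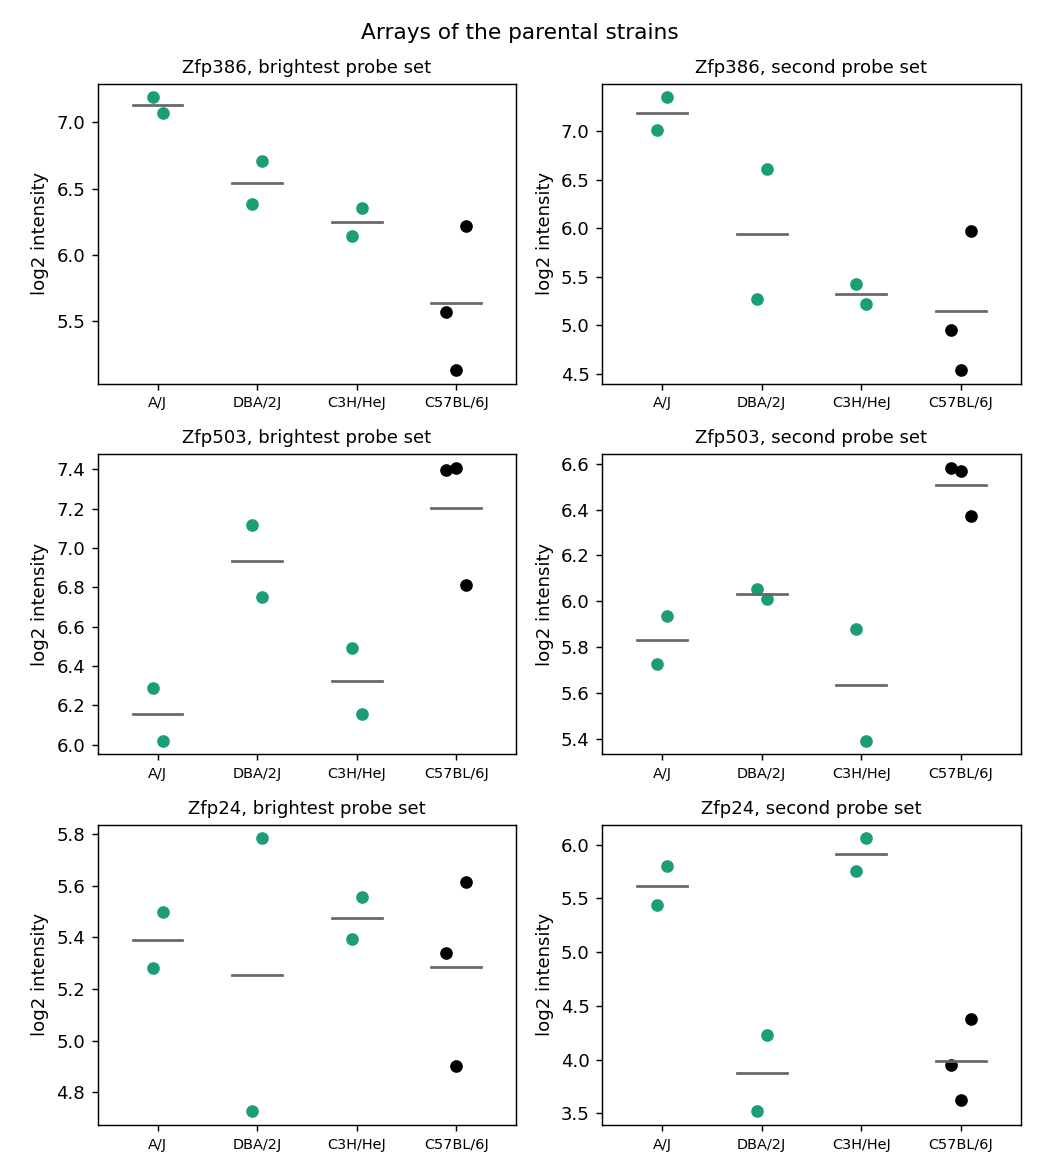
Log2 intensity of every parental array (points) and strain mean (bars) for the brightest and second probe sets of Zfp386, Zfp503 and Zfp24. Both Zfp386 probe sets are highest in A/J, while for Zfp24 the second probe set alone puts A/J and C3H/HeJ at 5.44 to 6.06, above C57BL/6J at 3.62 to 4.38.

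Segregation, a difference between the recombinant inbred strains of a family, was seen most often in BXD. There 14 of 52 members (26.9%) passed in 46 arrays of 22 strains, against 15.1% of all probe sets and 26.3% of the named genes above the level minimum. They were Zfp277, Zfp622, Zfp623, Zfp518b, Zfp212, Zfp943, Zfp131, Zfp790, Zfp451, Zfp503, Zfp955a, Zfp672, Zfp598 and Zfp46. Zfp598 is a ubiquitin ligase that senses collided ribosomes. The count depended on single strains: it was 8 without BXD19/TyJ, 9 without BXD40/TyJ and 21 without BXD22/TyJ. It was 5 with BXD32/TyJ included, 14 within the higher block of array numbers and 0 within the lower, and no BXD strain had arrays in both. Shares over all probe sets are not given for these settings, so changes in the members cannot be told from changes over the whole array. With the component as a covariate 12 members passed, against 11.9% of all probe sets and 20.6% of the named genes above the level minimum.

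The clearest case was Zfp277, with an intraclass correlation of 0.81 within BXD (95% interval 0.62 to 0.92) and an adjusted p of 1.3e-05 (1.5e-04 within the higher block of array numbers and 0.16 within the lower). Of the 27 BXD strain means, 17 lay between 5.21 and 5.61 and 10 between 5.99 and 6.68, with the widest gap, 0.39, between these sets. DBA/2J had 5.39 and 5.63, against 6.10, 5.35 and 6.62 in C57BL/6J, so the DBA/2J mean of 5.51 lay within the lower set and the C57BL/6J mean of 6.02 in the upper one, while the parental arrays overlapped. After removal of the component the widest gap, of 0.25, parted the same 17 and 10 strains, with the DBA/2J mean then at 5.69 inside the gap (5.66 to 5.91) and the C57BL/6J mean at 6.34. Zfp277 did not pass in AXB/BXA (adjusted p = 0.53) or BXH (adjusted p = 0.78), where strain means ran from 5.48 to 6.83 and from 5.58 to 6.60.

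Zfp622 segregated in BXD (adjusted p = 0.0028) with strain means from 8.71 to 9.68, although its parents averaged 9.19 in DBA/2J and 9.05 in C57BL/6J. It was also the 1 member that passed in AXB/BXA (adjusted p = 0.037), where 12 members had an unadjusted p under 0.05. There 3.81% of all probe sets and 5.89% of the named genes above the level minimum passed. In AXB/BXA the call of Zfp622 rested on AXB1/PgnJ, which averaged 10.07 while the other 27 strains lay at or below 9.47. Without AXB1/PgnJ the adjusted p was 0.48, and the call was also lost without AXB10/PgnJ, BXA13/PgnJ or BXA16/PgnJ. The second probe set of Zfp622 was much dimmer, with a mean of 5.14 against 9.1 for the brightest. It passed between all strains (intraclass correlation 0.27, adjusted p = 0.010 by limma) and correlated with the brightest at r = 0.69 over strain means. Its adjusted p was 0.17 in BXD and 0.11 in AXB/BXA, so the segregation of Zfp622 rests on the brightest probe set alone. Over strain means Zfp622 correlated with the brown adipocyte score at r = -0.60, the lowest of the members with that score. The part of brown fat RNA in its range was not tested. Zfp518b segregated in BXD (adjusted p = 0.0042) from 4.75 to 5.96, and Zfp623 (adjusted p = 0.0043) from 5.52 to 6.39. Zfp943 passed at 0.0092 and Zfp212 at 0.019.

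In BXH 10 members had an unadjusted p under 0.05. The 1 that passed was Zfp703 (adjusted p = 0.038), with 1.26% of all probe sets and 1.68% of the named genes above the level minimum. Its 10 strain means ran from 7.90 in BXH4/TyJ to 9.13 in BXH2/TyJ, and its parents averaged 8.05 in C3H/HeJ and 8.54 in C57BL/6J. Its call was lost without any 1 of BXH4/TyJ, BXH6/TyJ, BXH7/TyJ, BXH19/TyJ or BXH22/KccJ, at adjusted p between 0.051 and 0.39.

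With the array-wide component as a covariate, 5 members passed in AXB/BXA and 3 in BXH. The shares were 8.24% and 2.64% of all probe sets, and 14.1% and 4.01% of the named genes above the level minimum. Zfp423 was among the members that passed in both, with an adjusted p of 1.5e-04 in AXB/BXA and 0.011 in BXH. It did not pass in BXD (0.90). Without the covariate its strain means ran from 4.22 to 6.21 in AXB/BXA, from 4.08 to 5.23 in BXD and from 4.27 to 5.81 in BXH, and it did not pass in any of the 3 (adjusted p of 0.056, 0.85 and 0.21). The other members that passed in AXB/BXA were Zfp386 (0.0068), Zfp771 (0.0096), Zfp622 (0.019) and Zfp943 (0.049), and in BXH Zfp703 (0.030) and Zfp598 (0.046). Whether segregation differs between the families was not tested.

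The second probe set of Zfp24 passed in AXB/BXA (adjusted p = 2.9e-05) and in BXH (adjusted p = 1.4e-05), and did not pass in BXD (adjusted p = 0.58). In BXH, 7 strain means lay at or below 4.30 and 3 at or above 5.64, with C3H/HeJ at 5.91 and C57BL/6J at 3.99. In AXB/BXA, 12 lay at or below 4.47 and 16 at or above 4.92, with A/J at 5.62. In BXD all 27 lay between 3.71 and 4.39, with DBA/2J at 3.88.

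Between families, 2 members differed in their strain means between AXB/BXA (28 strains) and BXD (27 strains). There 2.22% of all probe sets and 2.95% of the named genes above the level minimum passed. Zfp277 averaged 6.34 ± 0.34 in AXB/BXA and 5.77 ± 0.51 in BXD (SD over strains), a log2 difference of 0.57 (SE 0.11, adjusted p = 8.0e-04). Zfp518b averaged 4.96 ± 0.24 in AXB/BXA and 5.38 ± 0.27 in BXD (SD over strains), a difference of -0.42 (SE 0.07, adjusted p = 5.5e-05). In both genes the strain ranges of the families overlapped. For both genes the parents lay in the same order as the families. A/J and DBA/2J averaged 6.35 and 5.51 for Zfp277, and 4.92 and 5.41 for Zfp518b. The call of Zfp277 was lost without replicate 1 of each strain (0.45, adjusted p = 0.057) and both calls with those 82 arrays left out (0.40 and -0.38, adjusted p of 0.21 and 0.053). Within the higher block of array numbers both passed (0.56 and -0.41, adjusted p of 0.020 and 0.0093), and within the lower block, at 0.58 and -0.41, neither did (adjusted p of 0.56 and 0.22). With the component as a covariate 6 members passed, against 4.52% of all probe sets.

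Between AXB/BXA and BXH no member passed by limma, with 5 at an unadjusted p under 0.05 and 0.322% of all probe sets called. Between BXD and BXH none passed by limma, with 4 at an unadjusted p under 0.05 and 0.184% called. With the component as a covariate 1 member passed in each: Zfp386, which averaged 6.44 ± 0.44 in AXB/BXA and 5.88 ± 0.29 in BXH (SD over strains), and Zfp277, which averaged 5.77 ± 0.51 in BXD and 6.32 ± 0.29 in BXH (SD over strains). The family contrasts share families and are not independent of each other.

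**Figure D4:**
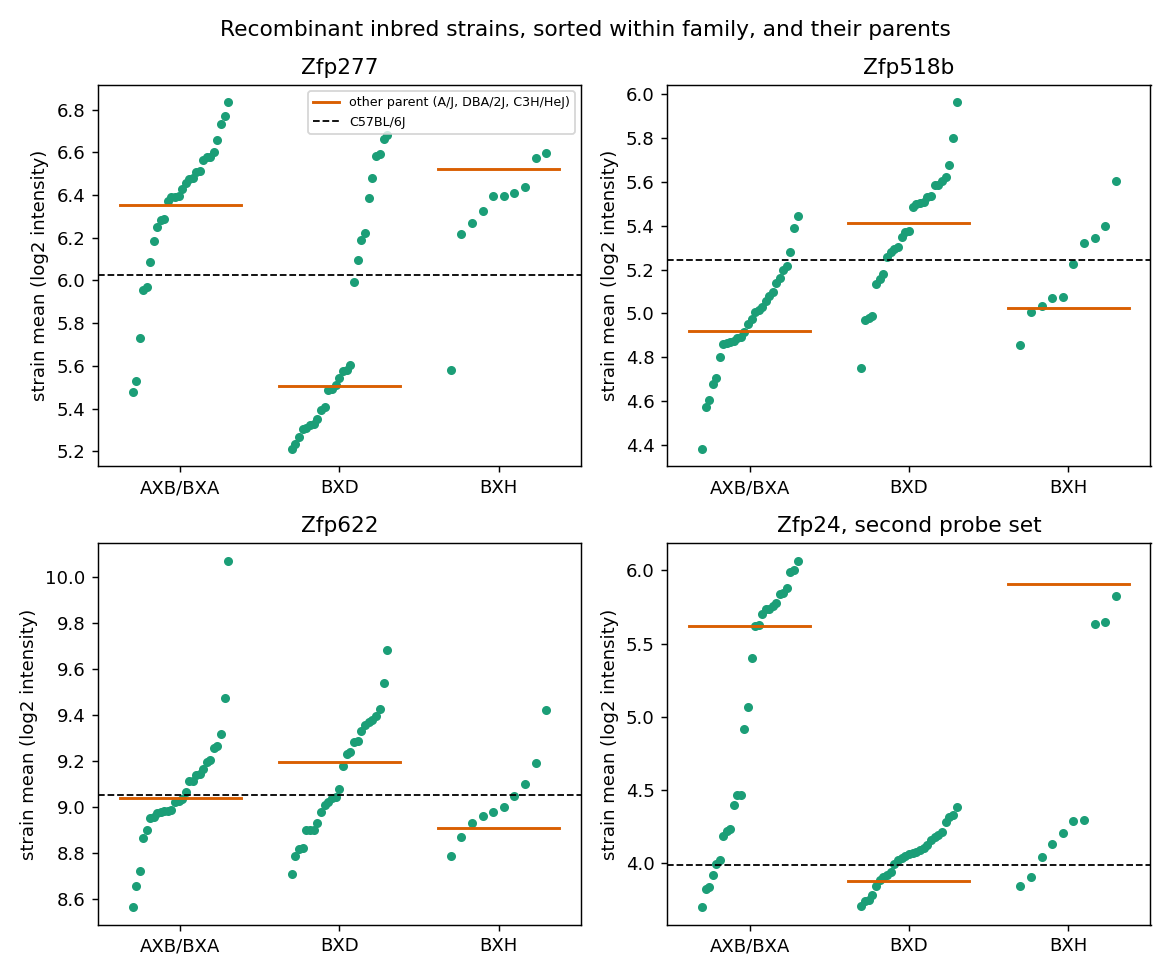
Strain means (log2 intensity) of the recombinant inbred strains, sorted within AXB/BXA, BXD and BXH, for Zfp277, Zfp518b, Zfp622 and the second probe set of Zfp24, with each family's other parent as a solid line and C57BL/6J as a dashed line. In BXD, 17 strains lie at or below 5.61 and 10 at or above 5.99 for Zfp277; in BXH, 3 strains lie at or above 5.64 for the second probe set of Zfp24.

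Zfp genes cluster on chromosomes, and neighbours were compared. With starts within 500 kb joined into runs, 20 members lay in runs of Zfp genes and 32 alone, and 16 of the 20 and 25 of the 32 passed the strain test, beside 46.5% of all probe sets and 70.7% of the named genes above the level minimum. The only run with 3 members was that of Zfp871, Zfp955a and Zfp955b on chromosome 17. The members formed 6 neighbouring pairs, and their correlations over 93 strain means lay between 0.48 and 0.83, with a median r of 0.77. In 1252 pairs of members on different chromosomes r ran from -0.84 to 0.93 with a median of 0.07, and its median size regardless of sign was 0.44, so high values were not limited to neighbours. Distances are between the lower coordinates of the genes. Zfp943 and Zfp758 on chromosome 17, 399 kb apart, had the highest, at r = 0.83 (rho 0.80). Zfp35 and Zfp24 on chromosome 18, 20.1 kb apart, had r = 0.83 (rho 0.76). All values of that pair rest on the brightest probe set of Zfp24, with which its second probe set correlated at r = 0.05. Zfp871 and Zfp955a had r = 0.81 (rho 0.67), and Zfp955a and Zfp955b r = 0.73 (rho 0.67). Zfp212 and Zfp746, a repressor of Ppargc1a also named PARIS, on chromosome 6, had r = 0.63 (rho 0.48), and Zfp771 and Zfp768 on chromosome 7 r = 0.48 (rho 0.36).

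The permutation p of r, two-sided and adjusted over the 6 pairs, was 1e-05 for each, the smallest that the permutations can give; for rho the adjusted p was at most 4.3e-04. These p-values are against no correlation at all and do not set neighbours apart from other pairs that share the array-wide component. The permutations also treat strain means as independent, while strains of a family share parents. Without the 2 strains farthest from the median of the first gene the correlations lay between 0.50 and 0.81, and without RIIIS/J between 0.46 and 0.83. With the component removed the pairs ordered differently. Zfp943 with Zfp758 kept r = 0.63, Zfp35 with Zfp24 0.52, Zfp955a with Zfp955b 0.50, Zfp871 with Zfp955a 0.46 and Zfp212 with Zfp746 0.40, whereas Zfp771 with Zfp768 turned to -0.16 (permutation p = 0.14). The 5th and 95th percentiles of the pairs on different chromosomes were then -0.34 and 0.48, so 3 of the 6 pairs stood above that range. Within families, Zfp943 with Zfp758 had r of 0.91 in AXB/BXA, 0.72 in BXD and 0.91 in BXH, while Zfp212 with Zfp746 had 0.79, 0.15 and 0.65.

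Zfp955a and Zfp955b, and Zfp943 and Zfp758, are the pairs whose promoter windows above were the same or nearly so. For the other pairs with windows, Zfp212 with Zfp746, Zfp771 with Zfp768 and Zfp871 with Zfp955a, the windows matched in 2%, 6% and 3% of bases, within the range of pairs on different chromosomes. The windows cover gene starts, while the array reads the 3' part of transcripts, so their likeness does not show whether probes are shared. Genes that are near copies in that part too may share probes. The levels of Zfp955a and Zfp955b, and of Zfp943 and Zfp758, are therefore uncertain as separate measurements. Probe sequences were not analysed here.

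**Figure D5:**
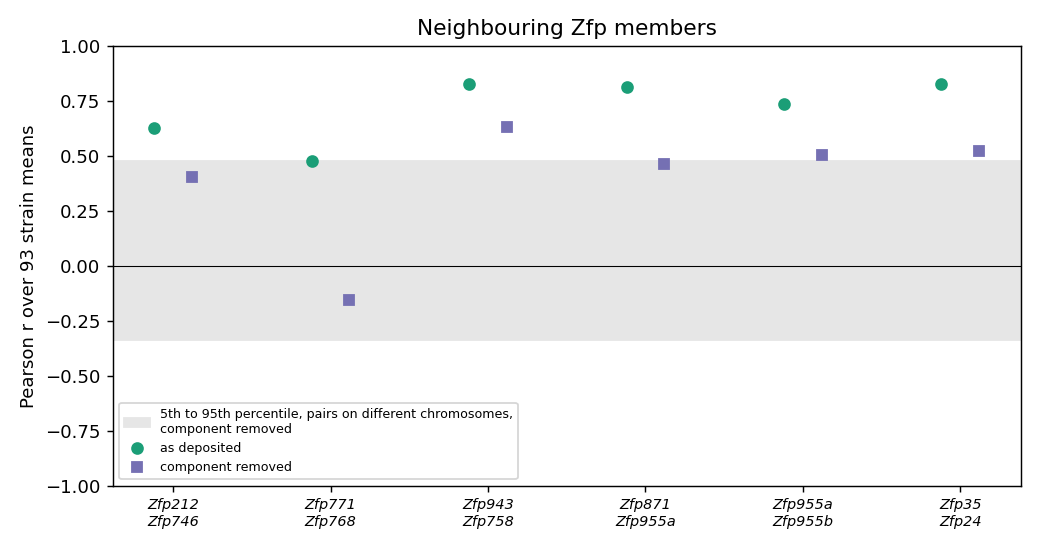
Pearson correlation over 93 strain means of the 6 neighbouring member pairs, for the deposited values (circles) and with the array-wide component removed (squares), above the 5th to 95th percentile of pairs on different chromosomes after removal (grey, -0.34 to 0.48). Zfp943 with Zfp758 stays highest at 0.63 and Zfp771 with Zfp768 turns to -0.16.

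Of 20 listed genes that work with KRAB zinc finger proteins, 16 had a probe set and 14 a mean above 5. The strain test passed for 10: Atf7ip, Cbx1, Cbx3, Dnmt1, Dnmt3a, Hdac1, Hdac2, Mphosph8, Setdb1 and Smarcad1. All 10 were among the 14, and the share of all named genes above the level minimum that passed was 70.7%. Setdb1, the histone methyltransferase of the pathway, had an adjusted p of 0.0023, with strain means from 4.74 in NOD/ShiLtJ to 6.74 in RIIIS/J. The adjusted p of Setdb1 was 0.026 without RIIIS/J. Trim28, the scaffold that KRAB domains bind, had an adjusted p of 0.057, with means from 7.20 in AXB24/PgnJ to 8.88 in RIIIS/J. Of the 10 that passed, 8 were highest in RIIIS/J, where the thymocyte markers were high. Without RIIIS/J, 5 of the 14 with a mean above 5 passed: Atf7ip, Dnmt3a, Mphosph8, Setdb1 and Smarcad1, all among those 10. The share of the named genes above the level minimum that passed was then 58.4%. None of the 16 passed in a parental contrast, where 0.524% to 1.25% of all probe sets passed. In BXD 1 of them, Mphosph8, segregated (adjusted p = 0.022 by limma). There 15.1% of all probe sets and 26.3% of the named genes above the level minimum passed.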

How the data were processed

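The submitters' processing notes name GCOS for reading the arrays and RMA for summarising probes. Versions are not given in these notes. What the authors deposited is a table of log2 values, 1 for each probe set on each array, used here without further normalization. Array medians lay between 4.55 and 4.88. Of 22416 probe sets, 89 controls were left out. Names came from the platform annotation, where 17783 probe sets had 1 symbol, 284 several and 4260 none, and neighbours and promoters from RefSeq (GRCm38.p6). The number of arrays limits the precision.

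Members and gene lists were chosen with earlier results of these data known. Strain, parental and within-family tests used limma 3.58.1 in R 4.3.3 on arrays, with 1 coefficient per strain. Family contrasts used limma on strain means. Benjamini-Hochberg adjustment ran over 22327 probe sets with a threshold of 0.05. Named genes were, for the strain effect, the 12 called members with the largest SD of strain means and the 3 with the smallest intraclass correlation; up to 6 called members each way per parental contrast; 6 per family; 4 each way per family contrast; neighbouring pairs; 3 genes on each side of the level minimum; and a list of known members. Others, among them those given by intraclass correlation or by correlation with the array-wide component, were chosen after their values were seen. That component is the first principal component of 6180 other genes over all arrays, scaled to an SD of 1, and its use was added after seeing the data. Correlations of neighbours had 100000 permutations. The tests were tried on simulated data. A split of the members by KRAB domain was not analysed here.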

Additional observations from a re-analysis of the deposited data

Results flagged for a closer look

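A sample was singled out where its distance to the nearest other sample of its group was large against the group's whole range, by Dixon's 95% critical value. This was applied to each named member in the 3 strains with 4 arrays and in the 10 strain means of BXH. It marked 18 of 136 groups, where chance alone gives about 1 in 20, and the genes are not independent of each other.

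BXH2/TyJ stood apart in the BXH strain means for 13 members. It was the lowest strain for Zfp330 at 5.52 (the other strains from 6.53 to 7.03, ratio 0.667), Zfp148 at 7.26 (from 8.46 to 9.14, ratio 0.641), Zfp277 at 5.58 (from 6.22 to 6.60, ratio 0.628) and Zfp35 at 4.88 (from 5.76 to 6.29, ratio 0.62). It was also lowest for Zfp758 (ratio 0.567), Zfp445 (0.556), Zfp207 (0.534), Zfp281 (0.525), Zfp943 (0.512) and Zfp24 (0.508). It was the highest strain for Zfp771 at 6.88 (from 5.54 to 6.12, ratio 0.568), Zfp212 at 6.76 (from 6.21 to 6.49, ratio 0.492) and Zfp651 at 7.14 (from 5.25 to 6.25, ratio 0.473). The 2 arrays of this strain lay at -3.38 and 0.37 on the array-wide component.

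In AXB19b/PgnJ, array 4 was higher than the other 3 arrays for Zfp280d at 6.67 (the others from 5.58 to 5.69, ratio 0.894), Zfp131 at 6.60 (from 6.00 to 6.07, ratio 0.876) and Zfp330 at 7.28 (from 6.78 to 6.86, ratio 0.844). In BXH4/TyJ, array 1 was low for Zfp445 at 5.81 (the others from 6.43 to 6.45, ratio 0.98), and array 3 was high for Zfp790 at 6.09 (from 5.34 to 5.46, ratio 0.841).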

How the results depend on the processing

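The counts of called members, of 52 unless said otherwise, depended on the setting. Shares over all probe sets are given above for some settings only, so a changed count may reflect the whole array. The count between strains lay between 36 and 44 with each array centred, fewer probe sets tested, an intensity trend, the block of array numbers, tissue scores or the array-wide component as covariates, BXD32/TyJ, second probe sets, or arrays below -1 on the component left out. It was 17 with the 82 arrays of high thymocyte or squamous score left out, 24 and 11 within the lower and higher block of array numbers (fewer arrays in each), and 20 of the 26 members above a mean of 6. Those 26 gave 8 members in BXD and 1 between AXB/BXA and BXD.
For A/J the count of 2 was 1 with centring, the trend, the block, BXD32/TyJ or without RIIIS/J, and 0 with second probe sets. For C3H/HeJ the count of 0 was 1 with tissue scores or second probe sets, and for DBA/2J 1 with the component. Leaving out 1 parental array gave 0 to 2 for A/J, 0 for DBA/2J, 0 to 1 for C3H/HeJ and 40 to 42 between strains.
In BXD the count of 14 was 9 with the trend, 2 without those high arrays, 5 with BXD32/TyJ, 22 without arrays below -1 on the component and 0 within the lower block. In AXB/BXA the count of 1 was 0 with the trend, the block, second probe sets, without those high arrays and within either block, 5 with the component and 4 without arrays below -1 on it. In BXH the count of 1 was 0 with centring, the trend, the block, tissue scores, without the high arrays and within either block, 3 with the component and 2 without arrays below -1. Leaving out 1 strain gave 0 to 2 in AXB/BXA, 8 to 21 in BXD and 0 to 2 in BXH. No BXD strain had arrays in both blocks, so the block could not be fitted there.
Between AXB/BXA and BXD the count of 2 was 0 without the high arrays and within the lower block, 6 with the component, 8 without arrays below -1 and 1 to 3 without 1 replicate of each strain. Between AXB/BXA and BXH it was 1 with tissue scores, with the component and without arrays below -1, and 0 to 1 without 1 replicate. Between BXD and BXH it was 1 with the component or without arrays below -1, and 0 without either replicate. The median correlation of neighbours was 0.77, 0.48 with the component removed, and Zfp771 with Zfp768 turned to -0.16. The share of parental differences with the same sign in second probe sets was 78.8%, and 86.1% where the second probe set had a mean above 5. Of the values for single named genes or pairs, 583 kept direction and side of the threshold, 118 fell short of it and 1 reversed. The causes of these changes were not tested. No paired analysis was possible because the labels give no replicate numbers.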
